A study of Mus musculus with 18 samples.

Results

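Collagen genes were taken as every gene whose symbol is Col, a number, a and a number, which gave 44 genes. All 44 were present among the 52958 genes of the dermal papilla table and among the 27933 genes of the hair follicle stem cell table. They fall into 5 classes: 11 fibrillar genes, 9 basement membrane genes, 9 FACIT genes (fibril-associated collagens with interrupted triple helices), 4 transmembrane genes, and 11 genes of network-forming, beaded filament and related collagens. Dermal papilla (DP) cells are specialised mesenchymal cells under each follicle. The stem cells of the follicle (HFSC) lie in its bulge, are epithelial and regrow it. Both kinds were purified by FACS from skin of female mice and measured by RNA-seq from total RNA made into cDNA with SMART-Seq v4, in 18 libraries of 9 groups with 2 libraries each.

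The groups vary glucocorticoid signalling, and corticosterone is the main glucocorticoid of mice. GR KO mice were Pdgfra-CreER; GR fl/fl animals on a 129/C57BL/6 background that received tamoxifen intraperitoneally for 6 days. Their Control mice had the same background and the same tamoxifen but were wild type, so the groups differed in the CreER transgene and the floxed allele as well as in the deletion. The Cre of this line is driven from Pdgfra, a gene of fibroblasts and dermal papilla cells, so the HFSC of GR KO mice came from animals in which the recombinase was targeted to the mesenchyme. ADX mice were adrenalectomized C57BL/6 wild-type animals and Sham mice were sham-operated C57BL/6 wild-type animals, in both cell types. ADX+CORT mice, measured for HFSC alone, were adrenalectomized C57BL/6 wild-type animals fed corticosterone. Ages are not stated, and nothing states that the 2 libraries of a group came from separate animals, so p-values measure the spread between these libraries.

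Library totals were 6199197 to 13950688 reads in DP and 14067139 to 33014976 reads in HFSC. Nr3c1, which encodes the glucocorticoid receptor, had 137 and 111 CPM in GR KO DP, against 671 and 978 CPM in Control DP (log2 fold change −2.73, SE 0.38, adjusted p = 0.0212, edgeR). In HFSC it had 243 and 170.0 CPM in GR KO, against 257 and 338 CPM in Control (log2 fold change −0.53, SE 0.24, adjusted p = 0.367). CPM are read counts relative to TMM-scaled library sizes, which correct for a few abundant genes taking up reads. Adjusted p-values are from edgeR's quasi-likelihood test with Benjamini-Hochberg adjustment over all genes tested in a cell type, with a threshold of 0.05, unless DESeq2 is named. The DP labels were checked against 11 dermal papilla markers, whose CPM summed to 1968 and 2101 in GR KO, 2736 and 4699 in Control, 2436 and 5100.2 in ADX and 3678 and 2229 in Sham. The HFSC labels were checked against 10 bulge stem cell markers, which summed to 23531 and 35689 CPM in GR KO, 47390.3 and 55529.9 in Control, 41738 and 43822 in ADX+CORT, 21854 and 32798 in ADX and 43868 and 48766 in Sham. No gene of any marker list was without reads in every library of its cell type.

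Collagens are the main structural proteins of connective tissue, each molecule a triple helix of alpha chains that are hydroxylated, folded and trimerised in the endoplasmic reticulum before export. Fibrillar collagens (types I, III and V in skin) form the cross-striated fibrils of the dermis, FACIT collagens sit on the surface of those fibrils, and type IV forms the sheet of the basement membrane, to which type VII anchors the dermis. Type VI makes beaded filaments around cells, type VIII makes hexagonal networks, and the transmembrane type XVII is a hemidesmosome component of basal keratinocytes and bulge stem cells that ties them to the basement membrane.

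Since several collagen genes were higher together in GR KO DP, the sequences before the start sites of 4 members that rose there (Col1a2, Col3a1, Col8a2 and Col11a1) and of the leading collagen of HFSC (Col17a1) are shown. They are the 250 bases before the RefSeq start of each gene on its own strand, 5′ to 3′, from the mouse build GRCm38.p6: chr6:4505368-4505617 (plus strand), chr1:45311288-45311537 (plus), chr4:126286544-126286793 (plus), chr3:114030290-114030539 (plus) and chr19:47692043-47692292 (minus). Capitals mark matches to the motif TATAAA and to the CCAAT box, the palindromic glucocorticoid receptor site and AGAACA (a single arm of that site), on either strand.
Col1a2: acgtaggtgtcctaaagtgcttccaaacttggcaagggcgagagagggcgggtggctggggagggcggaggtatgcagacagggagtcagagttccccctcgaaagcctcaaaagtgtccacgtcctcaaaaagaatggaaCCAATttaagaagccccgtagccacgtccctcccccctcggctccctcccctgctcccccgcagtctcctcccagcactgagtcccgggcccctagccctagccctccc
Col3a1: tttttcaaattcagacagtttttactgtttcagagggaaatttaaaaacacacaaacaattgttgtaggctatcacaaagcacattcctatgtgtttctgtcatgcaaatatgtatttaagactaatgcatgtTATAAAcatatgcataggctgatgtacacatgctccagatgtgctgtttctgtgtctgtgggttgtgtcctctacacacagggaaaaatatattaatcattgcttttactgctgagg
Col8a2: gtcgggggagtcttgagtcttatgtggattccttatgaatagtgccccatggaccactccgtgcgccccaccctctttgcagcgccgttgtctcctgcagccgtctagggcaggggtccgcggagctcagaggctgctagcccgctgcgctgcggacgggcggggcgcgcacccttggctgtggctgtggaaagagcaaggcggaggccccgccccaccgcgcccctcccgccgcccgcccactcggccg
Col11a1: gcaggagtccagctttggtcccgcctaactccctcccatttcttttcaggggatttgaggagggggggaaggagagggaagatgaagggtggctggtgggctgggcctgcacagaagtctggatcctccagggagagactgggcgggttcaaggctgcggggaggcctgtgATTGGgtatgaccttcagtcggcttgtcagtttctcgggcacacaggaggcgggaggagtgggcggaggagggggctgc
Col17a1: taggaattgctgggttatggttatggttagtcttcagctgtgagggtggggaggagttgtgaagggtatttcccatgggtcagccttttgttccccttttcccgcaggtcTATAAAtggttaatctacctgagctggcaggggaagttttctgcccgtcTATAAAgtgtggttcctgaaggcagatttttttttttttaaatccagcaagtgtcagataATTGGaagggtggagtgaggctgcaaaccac
The fibrillar genes Col1a2 and Col11a1 held a CCAAT box each, and Col3a1 held a TATAAA match at bases 134 to 139 of its stretch. Col17a1 held a pair of TATAAA matches, at bases 111 to 116 and 160 to 165, and a CCAAT box. The Col8a2 stretch held none of the capitalised motifs. RefSeq windows from 250 bases before to 50 bases after the start were found for 35 of the 44 members (none for Col1a1, Col5a2, Col2a1, Col12a1, Col14a1, Col22a1, Col26a1, Col4a3 and Col9a3). TATAAA was present in 14.3% of the 35 member windows and in 13.6% of all 32851 windows. CCAAT was present in 34.3% of member windows and in 37.4% of all windows. The GC box GGGCGG was present in 62.9% of member windows and in 35.7% of all windows. The palindromic receptor site was in 0 of the 35 member windows and in 0.475% of all windows, and AGAACA was in 5.71% of member windows (Col9a1 and Col20a1) and in 19% of all windows. Matches describe the letters of these windows only.

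In DP, collagen messages were dominated by 3 fibrillar genes. Levels between genes are compared as CPM divided by transcript length in kilobases (RPKM). Over the 8 DP libraries Col3a1, the chain of type III collagen, had a mean of 4711 RPKM and made up 48.4% of the collagen level. Col1a2 and Col1a1, the chains of type I collagen, had means of 1588 and 1023 RPKM, and the 3 genes together made up 75.2%. The chains of type VI collagen followed, with means of 412 RPKM for Col6a1, 325 RPKM for Col6a3 and 322 RPKM for Col6a2, an order in which Col6a3 and Col6a2 did not differ beyond their spread over libraries. Then came the FACIT gene Col16a1 (263 RPKM), Col4a1 of the basement membrane (241 RPKM), the transmembrane Col23a1 (139 RPKM) and Col5a2 (106 RPKM), a chain of type V collagen that co-assembles with type I. These 10 members had means of at least 100 RPKM, 25 had at least 10 RPKM, 35 had at least 1 RPKM and 9 were below 1 RPKM. Among the low ones were the cartilage collagen Col2a1, the type IX FACIT chains Col9a1 and Col9a3, and Col10a1 of hypertrophic cartilage. Reads in every DP library were found for 40 members, and none was without reads. These shares and this order depend on the transcripts to which Salmon assigned the reads. Col3a1 had at most 25211 CPM and 10254 RPKM in a library, and its longest transcript has 5564 bases. Col6a3 had at most 1739 CPM and 579.9 RPKM, and its longest transcript has 10106 bases. Part of their reads was thus assigned to shorter transcripts, and with the longest one as divisor both levels would be lower.

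The leading pair of each class shows how even or uneven the libraries were. Col3a1 averaged 9524 ± 1032 RPKM in GR KO, 2143 ± 984 in Control, 2875 ± 511 in ADX and 4303 ± 958 in Sham (SD, n = 2 each). Col1a2 averaged 3363 ± 407 RPKM in GR KO, 739.9 ± 346 in Control, 1021 ± 431 in ADX and 1226 ± 268 in Sham (SD, n = 2 each). For both genes the GR KO libraries were the highest of the 8. Col4a1, whose product forms the type IV network with that of Col4a2, had 375 and 329 RPKM in GR KO, 277 and 231 in Control, 133 and 133 in ADX and 227 and 219 in Sham. Col15a1, a collagen of the zone just beneath basement membranes, had 74.2 and 60.8 RPKM in GR KO, 43.4 and 62.2 in Control, 74.1 and 112 in ADX and 141 and 97.4 in Sham. In the ADX and Sham libraries, of another mouse strain than the GR KO and Control libraries, part of the Col15a1 reads was assigned to a shorter transcript, so its levels per length are not compared between those experiments. Col16a1 had 306 and 314 RPKM in GR KO, 223 and 314 in Control, 200.3 and 231 in ADX and 298 and 219 in Sham. Col12a1, the other leading FACIT gene, had 92.1 and 83.9 RPKM in GR KO, 13.6 and 7.02 in Control, 66.2 and 14.3 in ADX and 24.7 and 14.3 in Sham. Col23a1 and Col13a1, the transmembrane pair, ranged over 76.3 to 218 RPKM and 6.54 to 65.3 RPKM, and Col13a1 was lowest in a GR KO library.

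**Figure D1:**
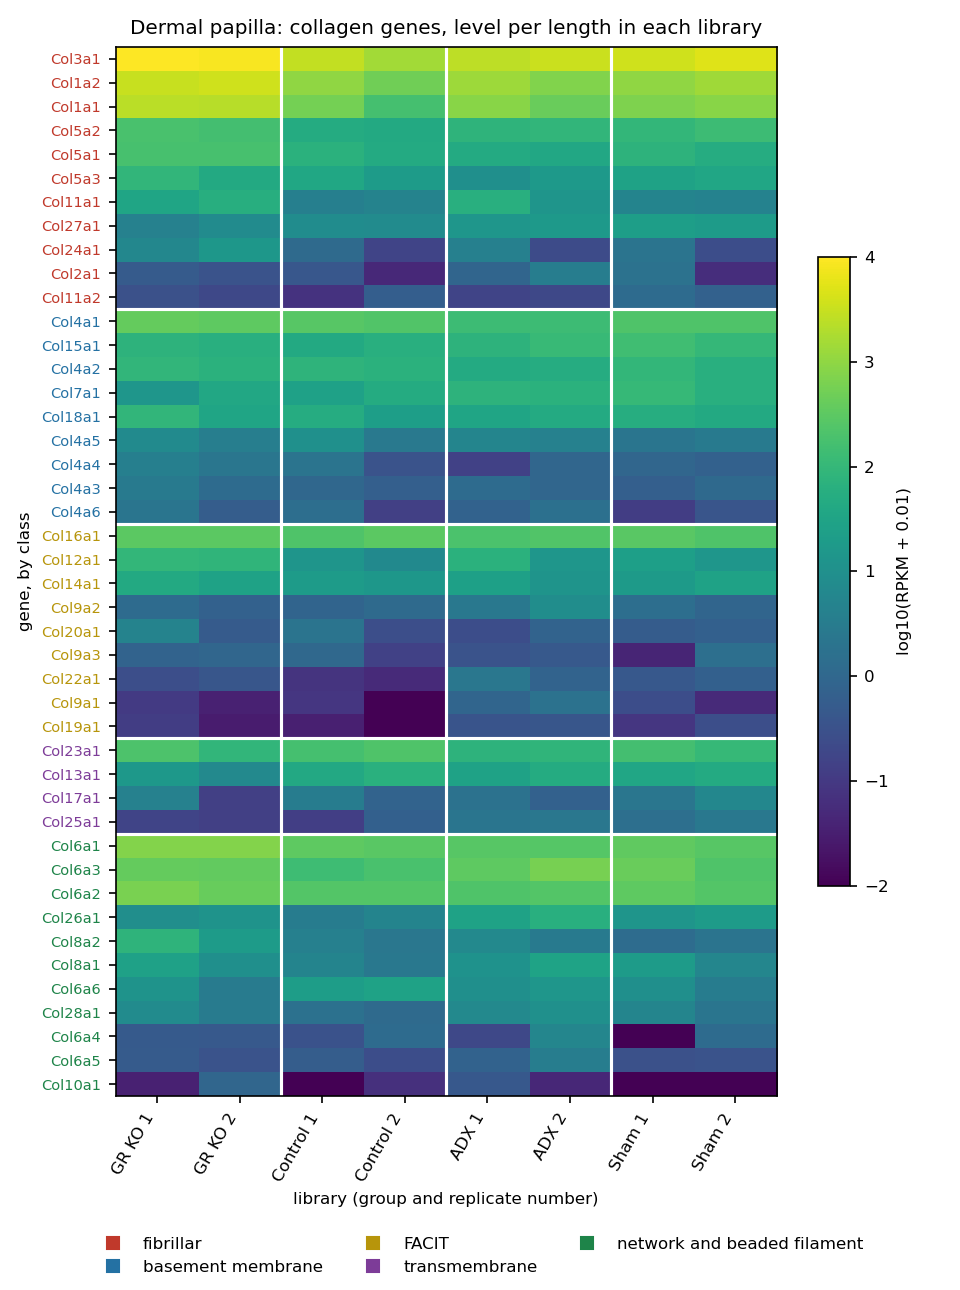
Heat map of the level per length of all 44 collagen genes (rows, grouped by class) in each of the 8 dermal papilla libraries (columns, GR KO, Control, ADX and Sham), as log10(RPKM + 0.01). The fibrillar genes Col3a1, Col1a2 and Col1a1 have the highest means over the 8 libraries, although Col1a1 is lower than several other members in Control replicate 2 and lower than Col6a3 in ADX replicate 2, and the cartilage collagens are near the dark end.

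The collagen share of all DP reads was 6.17% and 6.09% in GR KO and 2.21% and 1.33% in Control, and 2.72% and 2.24% in ADX and 2.61% and 3.28% in Sham. By class, fibrillar genes made up 83.2% and 85.2% of the collagen RPKM in GR KO, against 72.8% and 55.2% in Control. Their share was 74.7% and 69.1% in ADX, against 70.8% and 81.5% in Sham, groups that overlapped. Basement membrane genes took 3.40% and 3.01% in GR KO, against 7.86% and 10.8% in Control, and FACIT genes took 2.32% and 2.40% in GR KO, against 4.18% and 8.31% in Control. Transmembrane genes took 1.16% and 0.534% in GR KO, against 3.42% and 7.02% in Control. The Control libraries differed from each other in these shares by more than the GR KO libraries did. No test was made on shares.

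Chains that assemble into 1 molecule were compared as ratios per length where both had at least 10 reads in every library, which 6 of 9 listed pairs had in DP. The Col1a1 to Col1a2 ratio was 0.350 to 0.758 over the 8 libraries with a median of 0.613, so the Col1a2 message was the more abundant in each library. The Col6a1 to Col6a2 ratio was 1.04 to 1.88, and Col4a1 to Col4a2 was 2.37 to 4.82. The type VIII pair varied most: Col8a1 to Col8a2 was 0.331 and 0.493 in GR KO, 1.224 and 1.03 in Control, 1.72 and 11.0 in ADX and 14.8 and 2.78 in Sham. The GR KO libraries were the only ones of the 8 in which Col8a2 exceeded Col8a1. Such ratios depend on the transcript lengths assumed: with the longest transcript of each gene in place of the transcripts found, the median Col4a1 to Col4a2 ratio was 1.43 rather than 3.41.

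In GR KO DP compared with Control DP, 7 of the 44 collagen genes rose and none fell, where 0.767% of the 23463 genes tested rose and 0.771% fell. The genes that rose were the fibrillar Col1a2, Col3a1, Col5a1, Col5a2 and Col11a1, and Col6a1 and Col8a2 of the network and beaded filament class. Over the 44 members the median log2 fold change was 1.06 and 36 were positive, beside a median of 0.17 over all genes tested, of which 56.4% were positive. All 44 members passed the filter on low counts. Without adjustment 17 members were higher and 2 lower (9.67% and 5.57% of all genes), and DESeq2 called 13 higher and 2 lower of the 39 members it adjusted (4.11% and 3.74% of genes). Both GR KO libraries lay above both Control libraries for 24 members and below them for 2, against 31.6% and 20% of all genes. Since the cells were measured in bulk, fewer cells of a type and less RNA per cell cannot be told apart.

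Fibrillar genes led the comparison, with 5 of 11 called and a median log2 fold change of 1.88. Col5a2, a chain of type V collagen that helps set fibril diameter, had 1212 and 1019.7 CPM in GR KO, against 317 and 292 CPM in Control (log2 fold change 1.88, SE 0.28, adjusted p = 0.0218). Its partner chain Col5a1 had 1150.1 and 1313 CPM in GR KO, against 474 and 311 CPM in Control (log2 fold change 1.65, SE 0.32, adjusted p = 0.0422). In each gene both GR KO libraries were well above both Control libraries. Col3a1 had 25211 and 22559 CPM in GR KO, against 7179.6 and 3832 CPM in Control (log2 fold change 2.12, SE 0.39, adjusted p = 0.0385). Col1a2 had 16252 and 18990.1 CPM in GR KO, against 5186 and 2580.0 CPM in Control (log2 fold change 2.18, SE 0.44, adjusted p = 0.0463). The GR KO libraries were close to each other for both genes, while Control replicate 2 was the lower Control library in each. Col1a1, the other chain of type I collagen, had 11524 and 13018 CPM in GR KO, against 3292 and 1008 CPM in Control and did not pass (log2 fold change 2.51, SE 0.55, adjusted p = 0.056), with the widest gap between the Control libraries of these genes. Col11a1, a minor fibrillar chain best known from cartilage, had 117 and 208 CPM in GR KO, against 13.5 and 14.5 CPM in Control (log2 fold change 3.53, SE 0.64, adjusted p = 0.0372). Its Control libraries were near each other, and both GR KO libraries were several-fold higher. The remaining fibrillar genes did not pass: Col24a1 had 27.1 and 53.3 CPM in GR KO, against 1.58 and 1.12 CPM in Control (log2 4.89, adjusted p = 0.0976), Col5a3 had a log2 fold change of 1.24 (adjusted p = 0.207), and Col2a1, Col11a2 and Col27a1 had overlapping libraries.

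Of the 11 network and beaded filament genes, 2 rose, with a class median of 1.21. Col8a2, a chain of the type VIII network known from the basal membrane of the corneal endothelium, had 354 and 85.8 CPM in GR KO, against 17.6 and 10.5 CPM in Control (log2 fold change 3.97, SE 0.69, adjusted p = 0.0345). Both GR KO libraries exceeded both Control libraries, but GR KO replicate 1 was far above GR KO replicate 2. Col6a1, a chain of the type VI filaments around cells, had 3211 and 3135 CPM in GR KO, against 1307 and 1165 CPM in Control (log2 fold change 1.36, SE 0.27, adjusted p = 0.0444), with little spread within either group. Its partners Col6a2 and Col6a3 did not pass, although neither overlapped between groups. Col6a2 had 2526 and 1631 CPM in GR KO, against 991 and 986 CPM in Control (log2 1.07, adjusted p = 0.116) and Col6a3 had 1739 and 1087 CPM in GR KO, against 439 and 552 CPM in Control (log2 1.51, adjusted p = 0.109). Col6a6, an alternative type VI chain, went the other way without passing, with 103 and 27.6 CPM in GR KO, against 190.5 and 252 CPM in Control (log2 −1.76, adjusted p = 0.199).

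None of the 9 basement membrane genes passed, and their median log2 fold change was 0.39, with 9 positive values. Col4a1 had 856 and 861 CPM in GR KO, against 744 and 663 CPM in Control (log2 fold change 0.29, SE 0.25, adjusted p = 0.653). Col4a2 had 517 and 440.1 CPM in GR KO, against 507 and 449.6 CPM in Control (log2 0.00, adjusted p = 1), so its libraries overlapped. Col15a1 had 247 and 231 CPM in GR KO, against 164 and 201 CPM in Control (log2 0.39, adjusted p = 0.6), and Col7a1, which forms the anchoring fibrils, had overlapping libraries. The 0 calls in this class stand beside 0 without adjustment and 0 by DESeq2. None of the 9 FACIT genes passed either, with a median of 1.26, 3 higher without adjustment and 1 called by DESeq2. That gene was Col12a1, a fibril-surface collagen of dense connective tissue, with 429 and 331 CPM in GR KO, against 51.0 and 25.7 CPM in Control (log2 fold change 3.31, SE 0.74, adjusted p = 0.0596). Both GR KO libraries were several-fold above both Control libraries. Col16a1 had 1105 and 1041 CPM in GR KO, against 588 and 686 CPM in Control (log2 0.75, adjusted p = 0.265). The 4 transmembrane genes had a median of −1.16 and none passed, with 1 lower without adjustment and 1 by DESeq2. It was Col13a1, a cell-surface collagen of adhesion sites, with 41.5 and 15.4 CPM in GR KO, against 101 and 136 CPM in Control (log2 fold change −2.06, SE 0.48, adjusted p = 0.0699), so both GR KO libraries lay below both Control libraries. Col23a1 had 809 and 422 CPM in GR KO, against 765 and 1117 CPM in Control (log2 −0.61, adjusted p = 0.496), which overlapped.

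**Figure D2:**
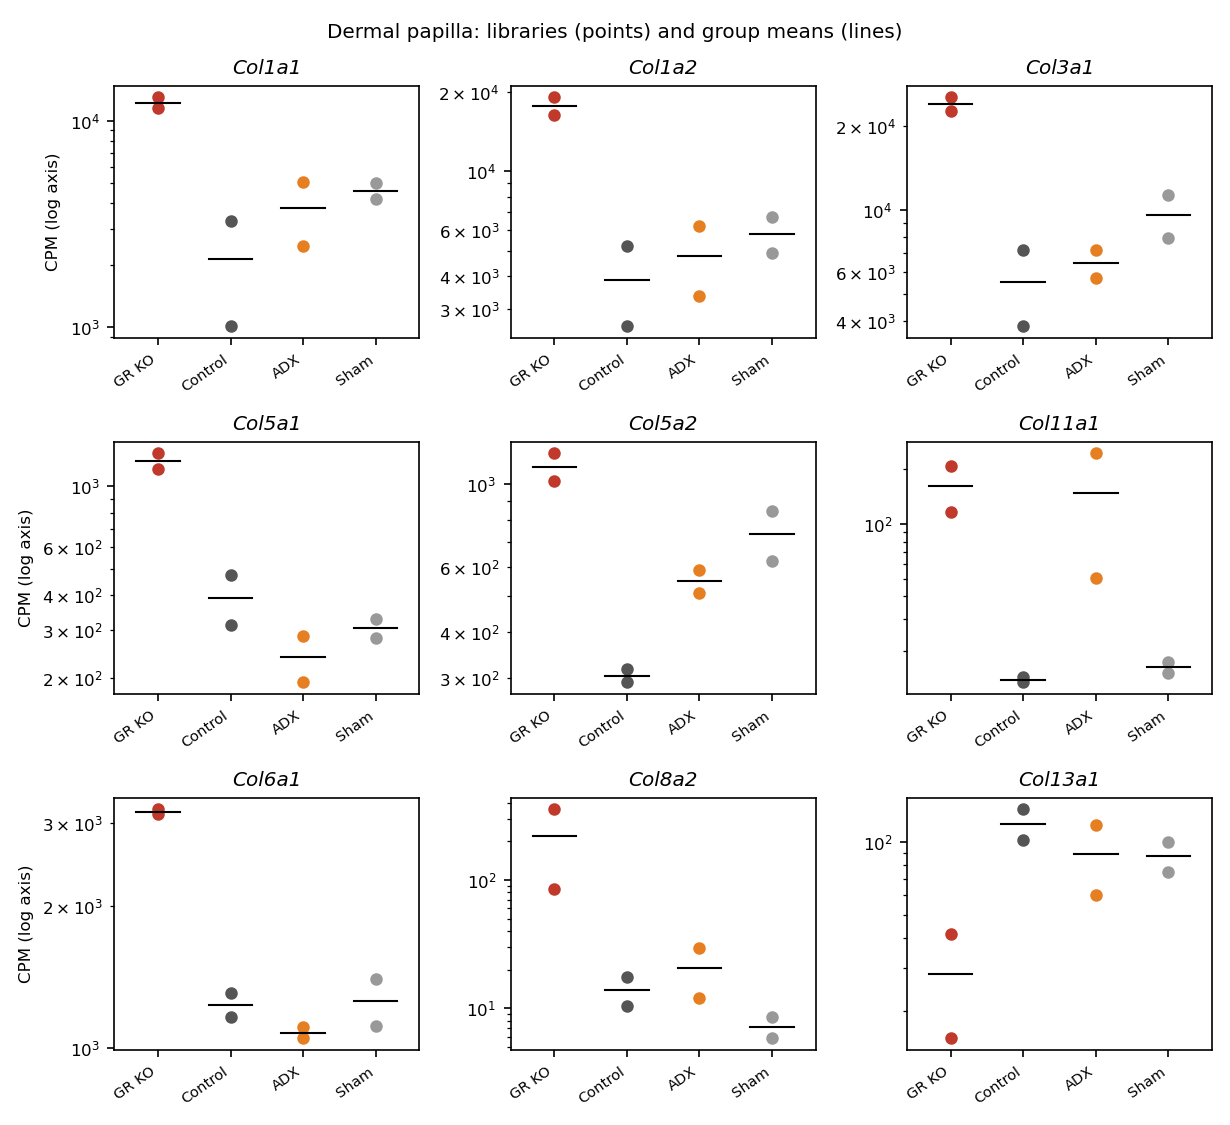
CPM (log axis, scaled separately for each gene) of 9 collagen genes in each dermal papilla library (points) with group means (lines), in the order GR KO, Control, ADX and Sham. For the first 8 genes both GR KO points lie above both Control points, for example 25211 and 22559 CPM in GR KO against 7179.6 and 3832 CPM in Control for Col3a1, and for Col13a1 they lie below.

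**Figure D3:**
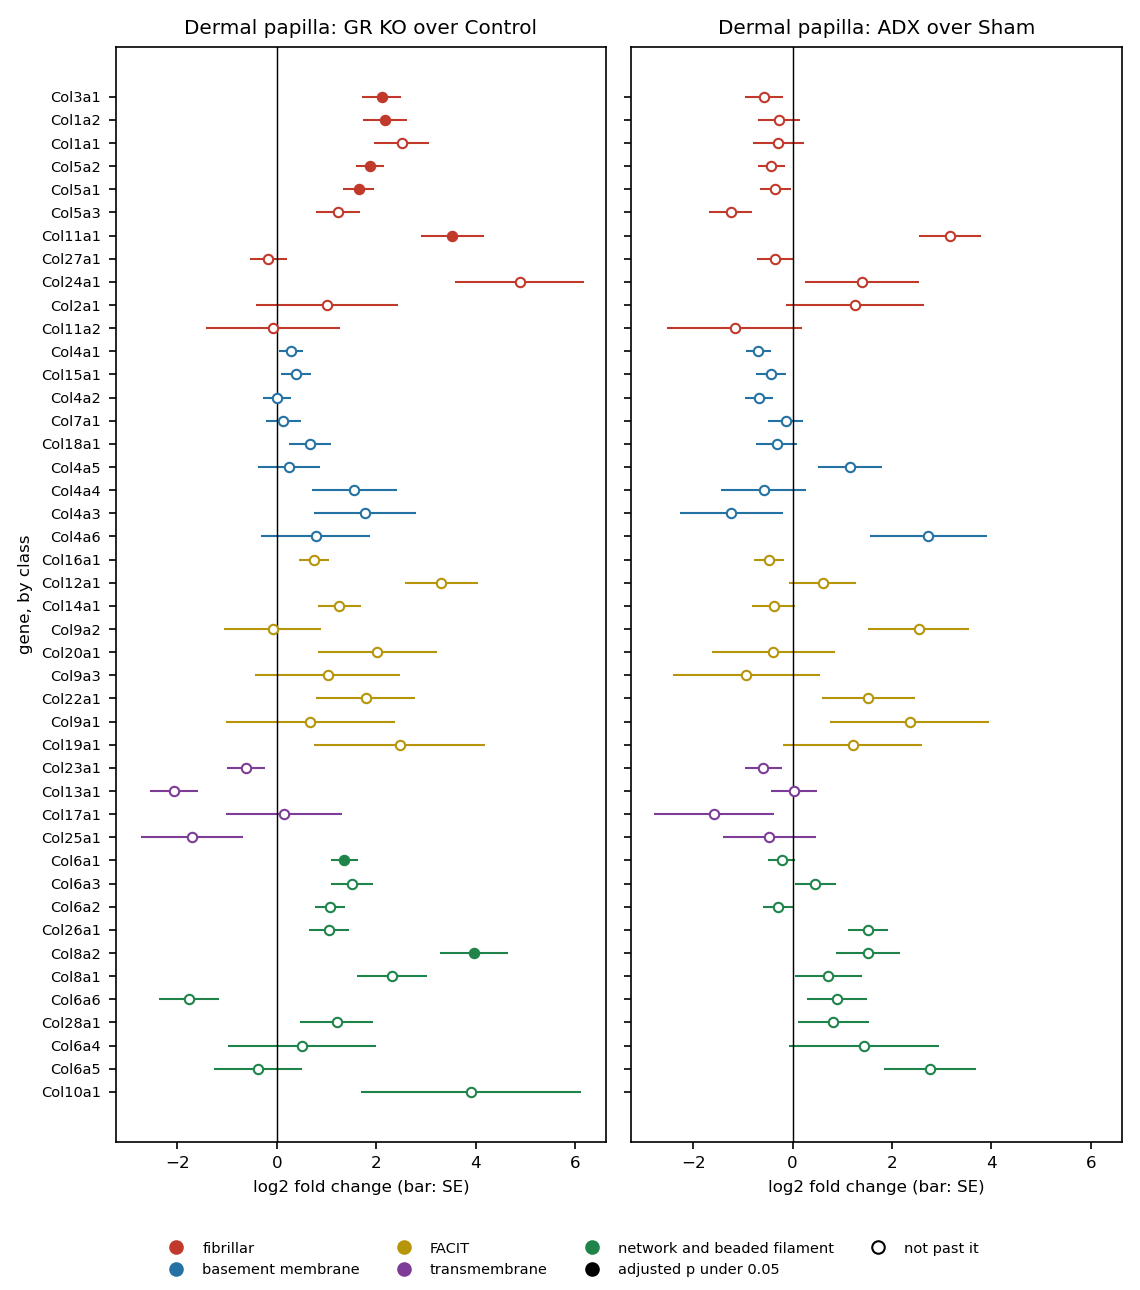
Log2 fold change with its SE for the 44 collagen genes by class in dermal papilla, for GR KO over Control and for ADX over Sham (without Col10a1, which had no read in Sham), with filled points where the adjusted p is under 0.05. There are 7 filled points for GR KO over Control, 5 of them fibrillar, and 0 for ADX over Sham.

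Some genes that modify and export collagen rose in the same comparison. Of 18 genes of collagen hydroxylation and folding, 2 rose, 0 fell and 16 did not pass, and the list's median log2 fold change was 0.91. Fkbp14, a prolyl isomerase of the endoplasmic reticulum that acts on collagens, had 120.1 and 122 CPM in GR KO, against 30.03 and 32.4 CPM in Control (log2 fold change 1.96, SE 0.33, adjusted p = 0.0312). P4ha2, a catalytic subunit of collagen prolyl 4-hydroxylase, had 169 and 104 CPM in GR KO, against 47.7 and 40.3 CPM in Control (log2 fold change 1.64, SE 0.33, adjusted p = 0.0463). Fkbp10, a collagen chaperone, had a log2 fold change of 1.41 and did not pass (adjusted p = 0.0696). Of 17 tested genes of procollagen export, processing and crosslinking, 3 rose, 0 fell and 14 did not pass, with a median of 1.30. Adamts2, the protease that removes the amino-terminal propeptide of procollagens, had 2192 and 804 CPM in GR KO, against 241 and 132 CPM in Control (log2 fold change 3.005, SE 0.49, adjusted p = 0.0303). Sec23a and Sec24d, subunits of the COPII coat that carries procollagen out of the endoplasmic reticulum, had log2 fold changes of 1.87 (SE 0.35, adjusted p = 0.0391) and 1.597 (SE 0.30, adjusted p = 0.0415). Lox, which crosslinks collagen, had 664 and 214 CPM in GR KO, against 59.6 and 47.9 CPM in Control and did not pass (log2 fold change 3.03, SE 0.66, adjusted p = 0.0556). Of 10 collagen receptors and uptake genes none passed in edgeR, with 3 higher without adjustment and 1 called by DESeq2, and the smallest adjusted p belonged to the integrin subunit gene Itga11 (log2 3.17, adjusted p = 0.0537). Ddr2, a collagen-binding receptor kinase, had a log2 fold change of 0.93 (adjusted p = 0.121), and Itgb1, the integrin beta subunit, had 0.94 (adjusted p = 0.151).

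Markers of other cells differed between the same libraries. The 10 dermal fibroblast markers (collagens left out) summed to 13818 and 21959.5 CPM in GR KO, against 9875 and 9147 CPM in Control, with 8 of 10 positive and a median log2 fold change of 0.94. The 11 dermal papilla markers summed to 1968 and 2101 CPM in GR KO, against 2736 and 4699 CPM in Control. Yet 8 of the 11 were positive and 3 negative, with a median log2 fold change of 0.37. The most abundant of them, Crabp1, was among the negative ones, with 495 and 958 CPM in GR KO, against 1854 and 3460 CPM in Control. Immune markers summed to 2472 and 30.4 CPM in GR KO, against 297 and 157 CPM in Control, and skeletal muscle markers to 398 and 24.7 CPM in GR KO, against 33.5 and 13.1 CPM in Control, with 5 of 5 tested genes positive in each list. Of 9 tested stem cell markers Cd34 rose (log2 fold change 2.14, SE 0.34, adjusted p = 0.0272), and of 8 epidermis markers Lor fell (log2 fold change −5.95, SE 0.68, adjusted p = 0.0165). Cd34 does not stand for its list, in which 6 were positive and 3 negative, with a median of 0.29. The keratin genes of that list were nearly absent from GR KO replicate 2. Krt14 had 145 and 0.396 CPM in GR KO, against 104 and 35.8 CPM in Control. Krt15 had 73.2 and 0.396 CPM in GR KO, against 97.6 and 21.2 CPM in Control. Immune and skeletal muscle sums were highest in GR KO replicate 1. Pericyte and smooth muscle markers summed to 7694 and 3640 CPM in GR KO, against 10045 and 2597 CPM in Control. These sums overlapped, with 1 positive and 7 negative genes and a median log2 fold change of −0.11. The part of these markers in the collagen differences was not tested.

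The number of collagen calls depended on single libraries and on an offset for GC content and length together. Calls over all genes also became fewer when any 1 of the 4 libraries was left out. With the offset 48 genes rose and 78 fell over all genes, and with the 4 libraries alone 70 rose and 72 fell. In the main analysis 180 rose and 181 fell. Each of the 7 calls was lost without Control replicate 2, where 1 Control library remained and calls over all genes fell the most. There the log2 fold changes were 3.48 for Col8a2, 3.39 for Col11a1, 1.63 for Col5a2, 1.58 for Col1a2, 1.55 for Col3a1, 1.19 for Col5a1 and 1.09 for Col6a1. Leaving out any other of the 4 libraries lost some of the 7 calls as well, and the 7 genes stayed positive in each of these fits. Outside the 7, Col1a1 had a log2 fold change of 3.45 without Control replicate 1, and Col13a1 had −2.94 without GR KO replicate 1. The Adamts2 call was lost without Control replicate 2, and that of P4ha2 without either Control library or GR KO replicate 1. Those of Fkbp14, Sec23a and Sec24d were lost without any 1 of the 4 libraries. With the offset the calls of Fkbp14 (adjusted p = 0.079), P4ha2 (0.0858), Sec23a (0.169) and Sec24d (0.0994) were lost too. With protein-coding genes alone the calls of Col1a2 (0.0554) and Col6a1 (0.0509) were lost, while over all genes 168 rose and 361 fell. With an offset for GC content and length 1 gene was called, Col8a2 (adjusted p = 0.0347, range 2.4e-19 to 0.246 over all alternatives), and with the 4 libraries of the comparison alone 3 were called. Under this offset the log2 fold changes of the other 6 were 3.21 for Col11a1, 2.03 for Col1a2, 1.86 for Col3a1, 1.55 for Col5a1, 1.54 for Col5a2 and 1.18 for Col6a1 (adjusted p = 0.0556 to 0.142), and the median of the 44 members was 0.97. The called members had a median GC content of 55.67%, the other members 55.05% and all annotated genes 47.07%.

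Adrenalectomy gave a different set of values. In ADX DP compared with Sham DP no collagen gene passed in edgeR, where 0.0128% of all genes rose and 0.00426% fell. Without adjustment 6 members were higher and 3 lower (4.18% and 7.49% of all genes), and DESeq2 called 3 higher and 0 lower of 40 (1.03% and 1.41% of genes). The median log2 fold change of the members was −0.25, beside 0.08 over all genes (0.03 and 0.07 with the offset for GC content and length), and 20 were positive, against 53.5% of all genes. Both ADX libraries lay above both Sham libraries for 12 members and below them for 13, against 23.9% and 19.4% of all genes.

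The genes that DESeq2 called were Col11a1, Col26a1 and Col6a5. Col11a1 had 244 and 50.5 CPM in ADX, against 15.2 and 17.5 CPM in Sham (log2 fold change 3.17, SE 0.63, adjusted p = 0.183, edgeR). Both ADX libraries were higher, ADX replicate 1 by far, and without ADX replicate 2 the log2 fold change was 3.96. Col26a1, a collagen-like gene first described in gonads, had 51.4 and 104 CPM in ADX, against 23.6 and 30.4 CPM in Sham (log2 fold change 1.52, SE 0.40, adjusted p = 0.247). Col6a5, an alternative type VI chain, had 7.09 and 32.9 CPM in ADX, against 2.79 and 3.06 CPM in Sham (log2 fold change 2.77, SE 0.93, adjusted p = 0.311), with ADX replicate 2 far above the other ADX library. Of the type IV chains, Col4a1 had 418 and 387 CPM in ADX, against 693 and 607 CPM in Sham (log2 fold change −0.69, SE 0.25, adjusted p = 0.334) and Col4a2 had 297 and 334 CPM in ADX, against 609 and 396 CPM in Sham (log2 fold change −0.67, SE 0.28, adjusted p = 0.399). Both ADX libraries lay below both Sham libraries for these chains. Col4a5 had 21.7 and 18.4 CPM in ADX, against 8.01 and 9.99 CPM in Sham (log2 1.15, adjusted p = 0.523) and Col4a6 had 5.0 and 10.4 CPM in ADX, against 0.610 and 1.69 CPM in Sham (log2 2.73, adjusted p = 0.407). For these 2 scarcer chains both ADX libraries lay above both Sham libraries, and none of the type IV chains passed. The main fibrillar genes did not pass, and Col1a1 and Col1a2 overlapped. Col3a1 had 5702 and 7163 CPM in ADX, against 7936 and 11269.8 CPM in Sham (log2 −0.58, adjusted p = 0.583) and Col1a2 had 6182 and 3369 CPM in ADX, against 4884 and 6690.2 CPM in Sham (log2 −0.28, adjusted p = 0.828). Col1a1 had 5057 and 2473 CPM in ADX, against 4181 and 4988 CPM in Sham (log2 −0.28, adjusted p = 0.862). Col5a3, another type V chain, had 59.8 and 105 CPM in ADX, against 174 and 217 CPM in Sham (log2 fold change −1.25, SE 0.44, adjusted p = 0.33), and Col6a1 of type VI had 1109 and 1048 CPM in ADX, against 1402 and 1113 CPM in Sham. Col6a2 had 909 and 981 CPM in ADX, against 1322 and 995 CPM in Sham. Both ADX libraries were below both Sham libraries for these 3 genes. Col6a3 had 803 and 1421 CPM in ADX, against 1069 and 549 CPM in Sham, and overlapped. The transmembrane Col23a1 had 374 and 479 CPM in ADX, against 783 and 497 CPM in Sham, which did not overlap, and Col13a1 had 60.3 and 117 CPM in ADX, against 74.8 and 99.4 CPM in Sham, which did. Col10a1 had no read in either Sham library and 1.39 and 0.117 CPM in ADX, so no fold is given.

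By class, the medians in ADX over Sham were −0.35 for fibrillar, −0.44 for basement membrane, 0.61 for FACIT, −0.53 for transmembrane and 0.90 for network and beaded filament genes. None of the 18 hydroxylation and folding genes, 17 tested export and crosslinking genes and 10 receptor genes passed in edgeR. Without adjustment 0, 1 and 0 of them were higher and 2, 2 and 0 lower, and DESeq2 called 1 export gene higher and 0 others. Adamts14, a procollagen amino-propeptidase related to Adamts2, had 11.8 and 18.4 CPM in ADX, against 3.83 and 3.38 CPM in Sham (log2 2.06, adjusted p = 0.234 in edgeR and 0.00923 in DESeq2). The 2 hydroxylation genes lower without adjustment were P4ha2 and Fkbp14, with log2 fold changes of −0.96 (adjusted p = 0.321) and −0.90 (adjusted p = 0.33). Here too markers of other cells differed: pericyte and smooth muscle markers summed to 6228 and 1095 CPM in ADX, against 386 and 509 CPM in Sham (7 of 8 positive). Fibroblast markers summed to 4872 and 7679.7 CPM in ADX, against 12152 and 12949 CPM in Sham (9 of 10 negative), and differentiated epidermis markers to 442 and 260.4 CPM in ADX, against 1044 and 4056 CPM in Sham (7 of 8 negative). Their part in the collagen values was not tested.

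The difference between both DP effects was tested itself, as the GR KO effect minus the ADX effect. Of the 44 collagen genes 1 passed, Col5a2, with a difference of 2.30 on the log2 scale (SE 0.39, adjusted p = 0.0408), where 0.349% of all genes were higher and 0.128% lower. The effects side by side were 1.88 for GR KO over Control and −0.43 for ADX over Sham. Without adjustment 13 members were higher and 3 lower (10.6% and 4.69% of all genes), 31 were positive (53.3% of all genes), and DESeq2 called 7 higher and 2 lower of 39 (3.99% and 2.67% of genes). Col3a1 had a difference of 2.70 (adjusted p = 0.0593) and Col5a1 of 2.00 (adjusted p = 0.0704), neither past the threshold. Of the biosynthesis genes Fkbp14 passed, with a difference of 2.86 (SE 0.46, adjusted p = 0.0357), made of 1.96 for GR KO over Control and −0.90 for ADX over Sham. The Col5a2 call was lost without Sham replicate 2, either ADX library, either Control library or GR KO replicate 1 (adjusted p = 0.0523 to 0.209). Without ADX replicate 1 Col12a1 (0.0285) and Col24a1 (0.0436) were called instead, and without GR KO replicate 2 Col5a2 (0.0389) and Col5a3 (0.0462). The Fkbp14 call was lost without either Sham library, ADX replicate 2 or either Control library (adjusted p = 0.0548 to 0.198). Col11a1 was positive in both contrasts, with log2 values of 3.53 in GR KO over Control and 3.17 in ADX over Sham, and a difference of 0.36 (SE 0.82, adjusted p = 0.911). Col8a2, called in GR KO DP, was also higher in ADX without passing there. It had 29.6 and 12.0 CPM in ADX, against 5.84 and 8.62 CPM in Sham. The experiments behind the 2 effects also differed in strain and tamoxifen.

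In HFSC the collagen message was of another kind, led by a transmembrane gene. DP and HFSC reads were counted with different tools, so values are not compared between the cell types. Col17a1, the hemidesmosomal collagen XVII that anchors bulge stem cells, had a mean of 487 RPKM over the 10 libraries and made up 63.9% of the collagen level. It was followed by Col6a1 (80.3 RPKM), Col8a2 (53.0 RPKM), Col18a1 of the basement membrane (41.9 RPKM) and the anchoring fibril gene Col7a1 (18.2 RPKM). Col6a1 was above Col8a2 and Col18a1 in mean, but their ranges over libraries overlapped. In all 1 member had a mean of at least 100 RPKM, 7 had at least 10 RPKM, 22 had at least 1 RPKM and 22 were below 1 RPKM. The members with reads in every library numbered 26, and Col6a4 had no read. The filter on low counts kept 33 of the 44 members, leaving out Col2a1, Col6a4, Col6a5, Col9a1, Col10a1, Col11a1, Col11a2, Col13a1, Col22a1, Col25a1 and Col26a1.

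The RPKM of Col17a1 were 257 and 304 in GR KO, 522 and 418 in Control, 678 and 611 in ADX+CORT, 390.4 and 506 in ADX and 644 and 539.6 in Sham. The GR KO libraries were the lowest of the 10. The other transmembrane genes were scarce, with 0.0389 to 1.78 RPKM for Col23a1. Among basement membrane genes Col18a1 had RPKM of 21.5 and 52.0 in GR KO, 47.6 and 27.6 in Control, 52.3 and 52.5 in ADX+CORT, 36.9 and 36.9 in ADX and 43.8 and 48.1 in Sham, and Col7a1 ranged over 10.1 to 23.6 RPKM. The leading fibrillar genes were the type V chains Col5a2, over 3.16 to 8.98 RPKM, and Col5a1, over 1.92 to 9.55 RPKM, while Col3a1 had a mean of 2.79 RPKM. The leading FACIT genes were Col12a1 (5.21 to 13.4 RPKM) and Col16a1 (3.11 to 6.75 RPKM). Transmembrane genes made up 57.8% to 67.7% of the collagen RPKM, network and beaded filament genes 12.7% to 23.0%, basement membrane genes 9.78% to 19.8%, fibrillar genes 1.61% to 3.76% and FACIT genes 1.53% to 3.28%. The network class was low in the ADX libraries (12.7% and 16.2%) and stood at 21.2% and 23.0% in ADX+CORT, 20.4% and 21.2% in Sham, 18.1% and 15.5% in GR KO and 20.7% and 18.1% in Control.

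**Figure D4:**
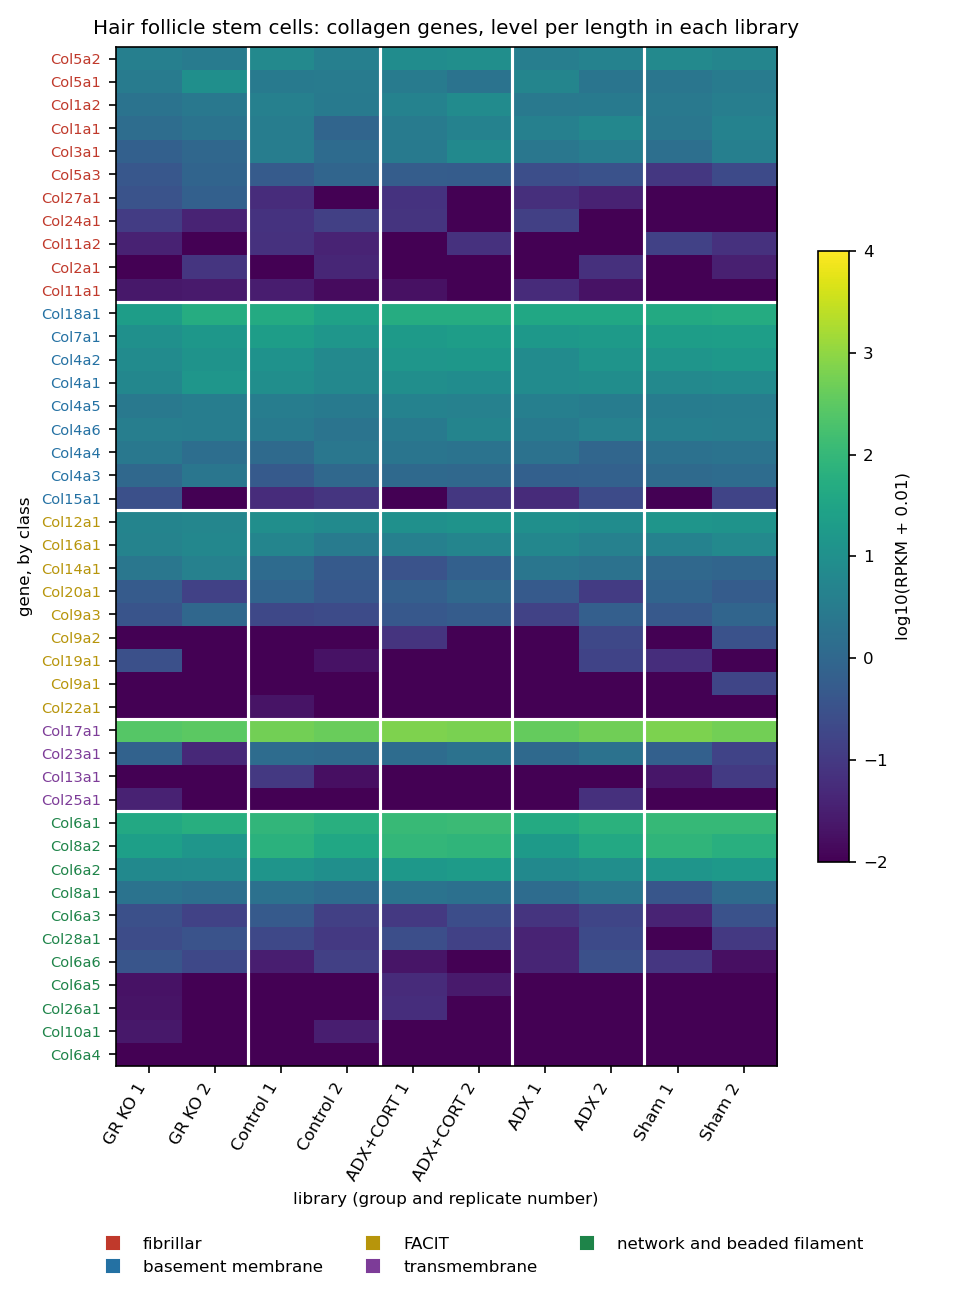
Heat map of the level per length of all 44 collagen genes (rows, grouped by class) in each of the 10 hair follicle stem cell libraries (columns, GR KO, Control, ADX+CORT, ADX and Sham), as log10(RPKM + 0.01). Col17a1 is the brightest row in the 10 libraries, and Col6a4, with no read, is at the dark end throughout.

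Chain ratios in HFSC could be given for 6 of 9 pairs. Col6a1 to Col6a2 was 5.89 to 7.68, Col4a1 to Col4a2 0.476 to 1.13 and Col4a5 to Col4a6 0.724 to 1.55 over the 10 libraries. Col8a2 exceeded Col8a1 in each library, with a Col8a1 to Col8a2 ratio of 0.00483 to 0.105. The gene lengths here are those of the deposited table, which join all annotated exons of a gene, so ratios between genes carry that choice. Several members lie head to head or side by side: Col4a1 and Col4a2 on chromosome 8 start 21 bases apart on opposite strands and overlap by 22 bases, the starts of Col4a3 and Col4a4 on chromosome 1 are 72 bases apart, and those of Col4a5 and Col4a6 on chromosome X 1309 bases apart (GRCm38 annotation). The libraries do not keep strand, so reads in overlaps with genes on the other strand cannot be assigned by direction.

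After adrenalectomy no collagen gene passed in HFSC. In ADX compared with Sham, 0 of 33 tested members passed in edgeR, where 0.282% of all genes rose and 0.0131% fell. Without adjustment 2 were higher and 4 lower (9.01% and 6.21% of all genes), and DESeq2 called 0 higher and 3 lower of 30 (4.09% and 1.9% of genes). Those 3 were Col6a1, Col6a2 and Col8a2. The median log2 fold change was −0.11 over the members and 0.00 over all genes (0.23 and −0.04 with the offset for GC content and length), 15 members were positive (49.6% of all genes), and both ADX libraries lay above both Sham libraries for 6 members and below them for 11 (25.5% and 23.9% of all genes).

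In ADX+CORT compared with ADX, 0 of 33 members and 0% of all genes passed in edgeR. Without adjustment 6 members were higher and 2 lower (9.78% and 9.53% of all genes), and DESeq2 called 5 higher and 1 lower of 30 (4.2% and 5.18% of genes). The higher 5 were Col1a2, Col5a2, Col6a1, Col6a2 and Col8a2, and the lower gene was Col14a1. The median was 0.30, beside 0.00 over all genes (−0.04 and 0.00 with the same offset), 22 members were positive (50.1% of all genes), and both ADX+CORT libraries lay above both ADX libraries for 15 members and below them for 2 (26.7% and 25.8% of all genes). In ADX+CORT compared with Sham, 0 of 33 members and 0% of all genes passed in edgeR, 2 members were higher and 0 lower without adjustment (4.33% and 1.75% of all genes), and DESeq2 called 0 of 30 (0.392% of genes higher and 0.0285% lower). In that comparison 22 members were positive (50.8% of all genes), and both ADX+CORT libraries lay above both Sham libraries for 11 and below them for 3 (21.5% and 19.1% of all genes). These 3 comparisons share libraries, so their values are given side by side and are not independent.

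Col6a1 had 477 and 539 CPM in ADX+CORT, 203 and 294 CPM in ADX and 447 and 464 CPM in Sham. The log2 fold changes were −0.87 for ADX over Sham (SE 0.26, adjusted p = 0.14), 1.03 for ADX+CORT over ADX (SE 0.26, adjusted p = 0.0714) and 0.16 for ADX+CORT over Sham (SE 0.26, adjusted p = 0.986). The ADX libraries were the lowest of the 6, and the ADX+CORT libraries lay above both Sham libraries. Its partner chain Col6a2 had 128 and 166 CPM in ADX+CORT, 58.2 and 77.3 CPM in ADX and 112 and 142 CPM in Sham. Its log2 fold changes were −0.91 for ADX over Sham (SE 0.25, adjusted p = 0.118), 1.12 for ADX+CORT over ADX (SE 0.25, adjusted p = 0.062) and 0.21 for ADX+CORT over Sham (SE 0.25, adjusted p = 0.961). ADX was again the lowest group, while ADX+CORT and Sham overlapped. Col8a2 had 427 and 386 CPM in ADX+CORT, 84.5 and 189 CPM in ADX and 374 and 270.4 CPM in Sham. For this gene the log2 fold changes were −1.24 for ADX over Sham (SE 0.38, adjusted p = 0.15), 1.57 for ADX+CORT over ADX (SE 0.39, adjusted p = 0.0684) and 0.33 for ADX+CORT over Sham (SE 0.38, adjusted p = 0.958). Both ADX libraries lay below the other 4, and the ADX libraries were themselves apart.

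Col14a1, a FACIT collagen of fibril surfaces, went the opposite way, with 2.33 and 4.78 CPM in ADX+CORT, 16.2 and 12.9 CPM in ADX and 7.58 and 6.36 CPM in Sham. Its log2 fold changes were 1.06 for ADX over Sham (adjusted p = 0.349), −2.03 for ADX+CORT over ADX (adjusted p = 0.0721) and −0.97 for ADX+CORT over Sham (adjusted p = 0.838). The 3 groups did not overlap. Col1a2 had 55.6 and 98.1 CPM in ADX+CORT, 32.2 and 34.98 CPM in ADX and 32.9 and 46.3 CPM in Sham, with log2 fold changes of 1.19 for ADX+CORT over ADX (adjusted p = 0.0741) and 0.96 for ADX+CORT over Sham (adjusted p = 0.711). Against Sham, Col5a3 had 4.03 and 3.69 CPM in ADX+CORT and 0.587 and 1.41 CPM in Sham (log2 1.95, adjusted p = 0.77), and Col8a1 had 9.66 and 8.198 CPM in ADX+CORT and 2.06 and 5.86 CPM in Sham (log2 1.18, adjusted p = 0.806). Both are low in these cells. Col17a1 had 3911 and 3521 CPM in ADX+CORT, 2250.4 and 2919 CPM in ADX and 3713 and 3111 CPM in Sham, so the ADX libraries were the lowest without passing (adjusted p = 0.452 for ADX over Sham and 0.254 for ADX+CORT over ADX). Col27a1 had no read in either Sham library, and no fold is given for it.

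Both ADX libraries were also the lowest of the 6 for Col5a2, Col7a1, Col18a1, Col4a2 and Col12a1, none of which passed, while other members were ordered differently. Among fibrillar genes Col5a2 had 78.0 and 86.1 CPM in ADX+CORT, 34.5 and 43.0 CPM in ADX and 62.9 and 50.3 CPM in Sham (log2 1.08 for ADX+CORT over ADX, adjusted p = 0.0724), and Col5a1 had 26.8 and 16.3 CPM in ADX+CORT, 45.1 and 18.6 CPM in ADX and 19.4 and 27.1 CPM in Sham. The ADX+CORT libraries were the highest of the 6 for Col5a2, while Col5a1 overlapped between groups. Col1a1, low in these cells, had 20.8 and 30.6 CPM in ADX+CORT, 26.4 and 38.5 CPM in ADX and 15.8 and 29.5 CPM in Sham. Of the basement membrane genes Col7a1 had 195 and 228 CPM in ADX+CORT, 162 and 187 CPM in ADX and 219 and 243 CPM in Sham. Col4a1 had 68.5 and 63.1 CPM in ADX+CORT, 59.7 and 64.6 CPM in ADX and 48.6 and 57.0 CPM in Sham, and Col4a2 had 95.1 and 102 CPM in ADX+CORT, 53.1 and 84.1 CPM in ADX and 90.9 and 104 CPM in Sham. Col4a1 and Col4a2 thus split, with both ADX libraries above both Sham libraries for Col4a1 and below them for Col4a2, and neither passed (adjusted p = 0.795 and 0.472). The FACIT gene Col12a1 had 157 and 182 CPM in ADX+CORT, 150.1 and 125 CPM in ADX and 205 and 182 CPM in Sham, so Sham was highest by a narrow margin, and Col16a1 had 27.9 and 36.5 CPM in ADX+CORT, 40.9 and 29.4 CPM in ADX and 30.3 and 45.6 CPM in Sham, which overlapped. The transmembrane Col23a1 had 7.53 and 10.2 CPM in ADX+CORT, 6.33 and 10.2 CPM in ADX and 3.99 and 0.848 CPM in Sham.

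The stem cell markers were likewise lowest in ADX, with sums of 41738 and 43822 CPM in ADX+CORT, 21854 and 32798 CPM in ADX and 43868 and 48766 CPM in Sham, and the part of this difference in the collagen values was not tested. Fibroblast markers summed to 363 and 416 CPM in ADX+CORT, 340.1 and 310.1 CPM in ADX and 278 and 309 CPM in Sham. Immune markers summed to 43.5 and 116 CPM in ADX+CORT, 119 and 155 CPM in ADX and 54.3 and 69.1 CPM in Sham, with 6 of 7 positive for ADX over Sham and 2 called higher by DESeq2. Endothelial markers summed to 18.7 and 8.09 CPM in ADX+CORT, 17.3 and 10.6 CPM in ADX and 2.41 and 5.65 CPM in Sham, with 5 of 5 positive. Differentiated epidermis markers summed to 5159 and 7192 CPM in ADX+CORT, 5099 and 5788 CPM in ADX and 2631 and 4109.8 CPM in Sham, with 5 of 8 positive. Schwann cell and melanocyte markers summed to 87.8 and 56.3 CPM in ADX+CORT, 58.2 and 60.4 CPM in ADX and 35.5 and 36.4 CPM in Sham, with 5 of 6 positive. The part of these lists in the collagen values was not tested either. Of 17 tested hydroxylation and folding genes, 15 tested export and crosslinking genes and 8 tested receptor genes, none passed in edgeR in these 3 comparisons. For ADX over Sham, 5 hydroxylation genes and 2 export genes were lower and 2 export genes higher without adjustment, and DESeq2 called Fkbp10 and the export adaptor gene Klhl12 lower. For ADX+CORT over ADX, 4 hydroxylation, 3 export and 1 receptor gene were higher and 1 hydroxylation gene lower without adjustment, and DESeq2 called Fkbp10, Plod3, Klhl12 and Ddr1 higher. For ADX+CORT over Sham, 2 hydroxylation genes were lower without adjustment and DESeq2 called 0. The chaperone gene Fkbp10 had 76.9 and 95.6 CPM in ADX+CORT, 36.3 and 49.5 CPM in ADX and 96.1 and 78.1 CPM in Sham (adjusted p = 0.0989 for ADX over Sham and 0.072 for ADX+CORT over ADX). Ddr1, the collagen receptor kinase of epithelia, had a log2 fold change of −0.57 for ADX over Sham (adjusted p = 0.364) and 1.16 for ADX+CORT over ADX (adjusted p = 0.0697). Without ADX replicate 2, the log2 fold change of Col8a2 was −1.92 in ADX over Sham. In ADX+CORT over ADX it was 1.31 for Col6a1, 1.33 for Col6a2 and 2.25 for Col8a2. Calls over all genes were more numerous in both comparisons without that library, so no calls are given for these fits.

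**Figure D5:**
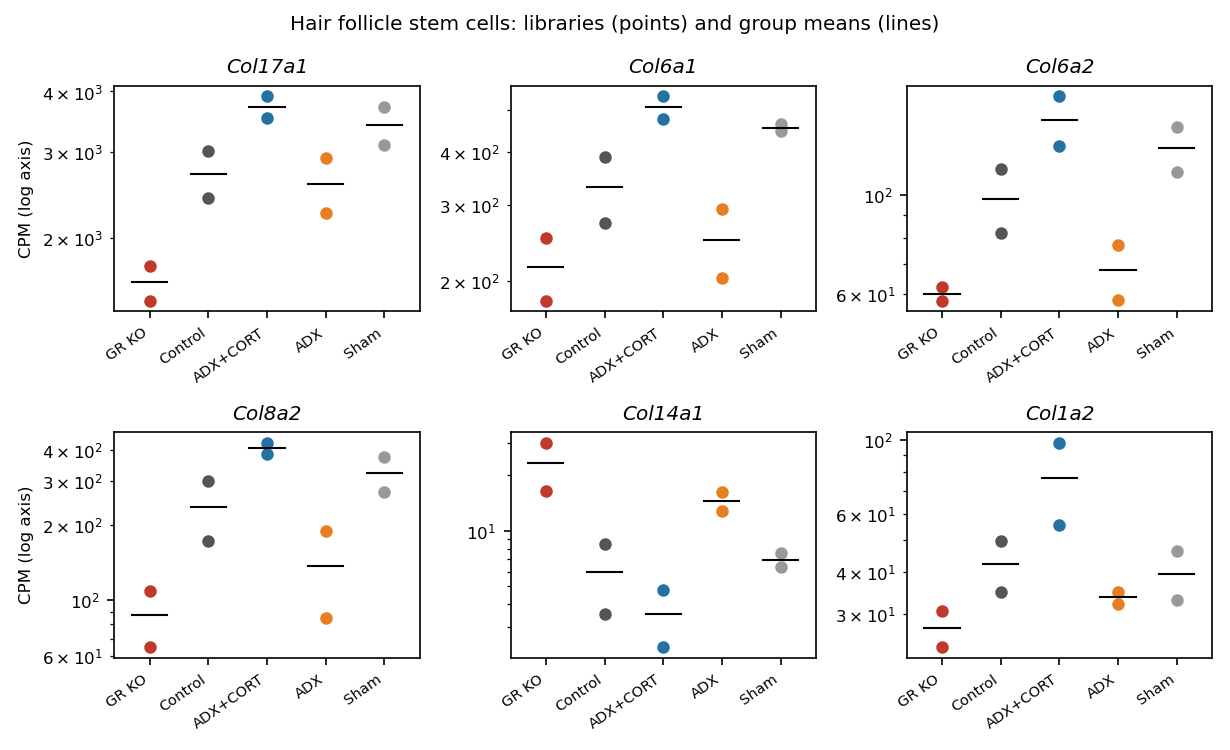
CPM (log axis, scaled separately for each gene) of 6 collagen genes in each hair follicle stem cell library (points) with group means (lines), in the order GR KO, Control, ADX+CORT, ADX and Sham. Col6a2 and Col8a2 show the ADX points below those of ADX+CORT and Sham, and Col14a1 shows them above (2.33 and 4.78 CPM in ADX+CORT and 16.2 and 12.9 CPM in ADX).

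In HFSC of GR KO mice compared with Control, 0 of 33 members passed in edgeR, where 0.67% of all genes rose and 0.315% fell. Without adjustment 4 members were higher and 6 lower (7% and 6.12% of all genes), and DESeq2 called 1 higher and 2 lower of 32 (3% and 1.85% of genes). The medians were −0.03 over the members and 0.01 over all genes, 15 members were positive (50.4% of all genes), and both GR KO libraries lay above both Control libraries for 7 members and below them for 9 (19.3% and 19.1% of all genes). Col14a1 had 16.4 and 29.98 CPM in GR KO, against 8.48 and 3.53 CPM in Control (log2 fold change 1.95, SE 0.52, adjusted p = 0.1). Both GR KO libraries were higher. Col8a2 had 109 and 64.7 CPM in GR KO, against 301 and 172 CPM in Control (log2 fold change −1.45, SE 0.39, adjusted p = 0.104), and Col17a1 had 1484 and 1755 CPM in GR KO, against 3012 and 2409.9 CPM in Control (log2 fold change −0.74, SE 0.24, adjusted p = 0.18). For this pair both GR KO libraries were below both Control libraries, and DESeq2 called all 3 genes. Col6a1 had 179 and 252 CPM in GR KO, against 389 and 273 CPM in Control (log2 −0.62, adjusted p = 0.333) and Col6a2 had 57.8 and 62.3 CPM in GR KO, against 114 and 82.0 CPM in Control (log2 −0.71, adjusted p = 0.23), so neither overlapped. Col12a1 had 79.3 and 85.6 CPM in GR KO, against 141 and 112 CPM in Control (log2 −0.61, adjusted p = 0.224), and Col3a1 had 6.64 and 9.92 CPM in GR KO, against 34.8 and 12.4 CPM in Control (log2 −1.51, adjusted p = 0.26). Beside Col14a1, the members higher without adjustment were Col27a1, Col5a1 and Col4a3, none of which passed. Col27a1 had 94 and 161 reads in GR KO, against 12 and 0 reads in Control. Col5a1 had 593 and 1455 reads in GR KO, against 496 and 784 in Control, and Col4a3 had 230 and 395 reads in GR KO, against 94 and 315 in Control. Without GR KO replicate 1 the log2 fold change of the transmembrane Col23a1 was −4.96, with 4.41 and 0.223 CPM in GR KO, against 7.61 and 6.66 CPM in Control. Among the leading basement membrane genes Col18a1 had 151 and 365 CPM in GR KO, against 334 and 194 CPM in Control and Col7a1 had 104 and 157 CPM in GR KO, against 225 and 147 CPM in Control, and both overlapped.

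Of 17 tested genes of hydroxylation and folding, 2 fell in GR KO HFSC and 15 did not pass. Fkbp10 had 17.3 and 24.6 CPM in GR KO, against 62.2 and 55.6 CPM in Control (log2 fold change −1.49, SE 0.26, adjusted p = 0.0327). P3h2, a prolyl 3-hydroxylase of basement membrane collagens, had 61.4 and 46.4 CPM in GR KO, against 162 and 142 CPM in Control (log2 fold change −1.49, SE 0.31, adjusted p = 0.0425). In both genes the groups were well apart. P3h4, a partner of the collagen hydroxylases, did not pass (log2 −1.22, adjusted p = 0.0608). None of 15 tested export and crosslinking genes passed in edgeR (1 higher and 3 lower without adjustment, 2 lower by DESeq2). The smallest adjusted p there was that of Pcolce, an enhancer of procollagen processing (log2 −2.63, adjusted p = 0.0712). None of 8 tested receptor genes passed in edgeR, with 1 higher without adjustment and 1 higher by DESeq2, which was the uptake receptor gene Mrc2 at 2.00 and 3.85 CPM in GR KO, against 0.102 and 0 CPM in Control. The Fkbp10 call was lost without either Control library or GR KO replicate 1 (adjusted p = 0.0603 to 0.151), and that of P3h2 without either Control library or GR KO replicate 2 (adjusted p = 0.113 to 0.187). Fibroblast markers summed to 183 and 281 CPM in GR KO, against 336 and 319.8 CPM in Control (8 of 9 tested genes negative, median log2 −1.18). Stem cell markers summed to 23531 and 35689 CPM in GR KO, against 47390.3 and 55529.9 CPM in Control. Cd34 fell among the stem cell markers (log2 fold change −1.49, SE 0.29, adjusted p = 0.0384), Lor among the epidermis markers (log2 fold change −1.88, SE 0.37, adjusted p = 0.0384) and Crabp1 among the dermal papilla markers (log2 fold change −1.85, SE 0.38, adjusted p = 0.0415). The epidermis list as a whole went the other way than Lor, with 6 of 8 positive and a median log2 fold change of 0.61. DESeq2 called 2 epidermis markers higher and 1 lower. Negative values were found for 7 of 10 stem cell markers and 6 of 8 tested dermal papilla markers. The part of these lists in the collagen values was not tested.

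The difference between the GR KO effect and the ADX effect in HFSC passed for 0 of 33 members and for 0% of all genes in edgeR, with 1 member higher and 1 lower without adjustment (4.16% and 6.41% of all genes) and 0 of 38 called by DESeq2 (0.12% of genes higher and 0.529% lower). Of the members 17 were positive, against 50.9% of all genes. The type IV chain Col4a3 had a difference of 1.90 (SE 0.66, adjusted p = 0.379) and the transmembrane Col23a1 of −3.37 (SE 1.36, adjusted p = 0.432). For Col8a2 both effects were negative, −1.45 for GR KO over Control and −1.24 for ADX over Sham, and the difference was −0.21 (SE 0.54, adjusted p = 0.946). For Col14a1 both were positive, 1.95 for GR KO over Control and 1.06 for ADX over Sham, with a difference of 0.90 (SE 0.72, adjusted p = 0.688). A p-value that misses the threshold does not show that the effects were alike. As in DP, the experiments behind the 2 effects also differed in strain and tamoxifen. Immune markers summed to 2214 and 2657 CPM in GR KO HFSC and 2368 and 2184 CPM in Control HFSC. They summed to 119 and 155 CPM in ADX HFSC and 54.3 and 69.1 CPM in Sham HFSC. The part of this contrast in the collagen values was not tested.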

How the data were processed

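RNA-seq of FACS-purified DP and HFSC was deposited as 1 table per library. For DP the authors deposited estimated counts per transcript from Salmon, per the submitters' processing notes and the file headers, with mm10 named as the build; these were summed to gene symbols over 52958 genes and rounded to whole numbers, and 150 of 134967 transcripts that matched no gene held at most 0.0752% of a library. For HFSC the authors deposited counts of reads per gene, made with Trim Galore 0.4.1, STAR 2.5.3 and featureCounts 1.6.1 (minimum mapping quality 30, exons, no strand), per the file headers and the submitters' processing notes. Each cell type was fitted with edgeR 4.0.16 in R 4.3.3 (TMM scaling, filterByExpr, quasi-likelihood test, 1 mean per group, no covariate), with 23463 and 15231 genes tested, 4 and 5 residual degrees of freedom, and biological coefficients of variation of 54.0% and 38.7%. The script was tested on simulated data. SE is the absolute log2 fold change divided by the square root of F. DP levels per length divide each transcript by its own length. Alternatives were DESeq2 1.42.0, other scalings and filters, a replicate block, offsets and leaving out each library. Members and lists were chosen with earlier results of these data known. Genes named are members past the threshold, the 3 smallest p-values of each comparison, the leading pair of each class and chain partners; others that are named were chosen after their values were seen. Libraries of a group differed by more than sampling noise.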

Additional observations from a re-analysis of the deposited data

Results flagged for a closer look

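Col5a2 differed in its effect between the DP experiments by 2.30 on the log2 scale (SE 0.39, adjusted p = 0.0408 in edgeR's test of the difference), with 1.88 for GR KO over Control and −0.43 for ADX over Sham. GR KO libraries held 1212 and 1019.7 CPM of it, Control libraries 317 and 292 CPM, ADX libraries 508 and 588 CPM and Sham libraries 621 and 849.9 CPM. The same test gave 2.86 for Fkbp14 (SE 0.46, adjusted p = 0.0357 in edgeR), with 1.96 for GR KO over Control and −0.90 for ADX over Sham. GR KO libraries held 120.1 and 122 CPM of this gene, Control libraries 30.03 and 32.4 CPM, ADX libraries 28.8 and 18.2 CPM and Sham libraries 51.9 and 35.7 CPM.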

How the results depend on the processing

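Groups of 2 libraries limit every count. With DESeq2 in place of edgeR, collagen calls were 15 in GR KO over Control DP (7 in edgeR), 3 in ADX over Sham DP, 9 for the DP difference of effects (1 in edgeR), 3 in ADX over Sham HFSC, 6 in ADX+CORT over ADX HFSC and 3 in GR KO over Control HFSC, where each of these contrasts without a stated edgeR count had 0 calls in edgeR. Without a filter on low counts, calls were 17 in GR KO over Control DP, 4 in ADX over Sham DP, 12 for the DP difference, 3 in ADX over Sham HFSC, 6 in ADX+CORT over ADX HFSC, 5 in GR KO over Control HFSC and 1 for the HFSC difference. Over all genes the higher and lower calls were, in the same order, 749 and 707, 364 and 530, and 792 and 513 in DP. In HFSC they were 639 and 249, 613 and 696, 518 and 322, and 73 and 183. Median-of-ratios scaling gave 0 for the DP difference, where 46 genes were higher and 45 lower over all genes. An offset for GC content and length gave 1 in GR KO over Control DP and 0 for the DP difference. Over all genes it gave 48 higher and 78 lower, and 24 higher and 14 lower. Fitting the compared groups alone gave 3 in GR KO over Control DP, beside 70 higher and 72 lower over all genes. The cause was not tested. Leaving out 1 library changed the number of collagen calls in GR KO over Control DP, ADX over Sham DP and the DP difference. In HFSC it did so in ADX over Sham, ADX+CORT over ADX and GR KO over Control, but not in ADX+CORT over Sham or the HFSC difference. Where a group was left with 1 library, its spread was taken as that of the remaining groups. The number of calls over all genes changed in these fits as well, so no counts are given for them. The mean HFSC share not divided by length was 61.0% for transmembrane genes and 14.8% for network and beaded filament genes, against 64.0% and 18.7% per length. DESeq2's scaling moved the median log2 fold change of all genes to 0.34 in ADX over Sham DP (0.08 in edgeR) and to −0.38 for the DP difference (0.11 in edgeR), and the members' medians kept their sign in these 2. With the offset for GC content and length the members' median was 0.23 in ADX over Sham HFSC (−0.11 in the main analysis), −0.04 in ADX+CORT over ADX HFSC (0.30) and 0.03 in ADX over Sham DP (−0.25); the cause was not tested. It was 0.21 in ADX over Sham HFSC without Sham replicate 2 and 0.45 in GR KO over Control HFSC without Control replicate 1 (−0.03 with it). For the genes of smallest p in each comparison, 1285 values kept their direction and side of the threshold, 123 passed only under the alternative and 84 passed only in the main analysis, and no direction reversed among these genes.

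The labels do not say that replicate numbers pair libraries. Same-numbered libraries of GR KO and Control DP deviated together with a correlation of 0.337, and the replicate block gave 9 calls there. Over all genes it gave 229 higher and 241 lower in that comparison, against 180 and 181 in the main analysis. Those of ADX and Sham DP had a correlation of −0.183, and the replicate block gave 0 calls, as it did with the ADX numbers crossed, an alternative chosen after seeing the data. Over all genes the block gave 7 higher and 3 lower there, and 3 higher and 1 lower with the numbers crossed. The replicate block gave 1 call for the DP difference of effects, where over all genes 129 were higher and 67 lower (82 and 30 in the main analysis). It gave 0 in the 4 HFSC comparisons and the HFSC difference. Over all genes it gave 9 higher and 0 lower in ADX over Sham HFSC and 92 higher and 45 lower in GR KO over Control HFSC. The block lost the P3h2 call in GR KO HFSC (adjusted p = 0.0557, edgeR).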

Other observations

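The DP table gives reads per transcript, and Col15a1 differed there between the experiments. Its transcript Col15a1-203, of 1755 bases, held 0% and 0% of the gene's reads in GR KO DP, 2.65% and 17.8% in Control DP, 68.5% and 65.4% in ADX DP and 59.3% and 61.6% in Sham DP. The longest transcript, Col15a1-202 of 5172 bases, held 75.9% to 97.0% in the GR KO and Control libraries and 31.5% to 39.6% in the ADX and Sham libraries. The GR KO and Control libraries came from 129/C57BL/6 mice given tamoxifen and the ADX and Sham libraries from operated C57BL/6 mice, so strain and treatment cannot be told apart here. No test was made of these shares, which Salmon estimated.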
